A study of Mus musculus with 13 samples.

Results

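The 45 cell cycle and mitosis genes described here are a fixed list of genes that act in S phase or mitosis, and the D-type cyclins that act in G1. They were looked up by symbol in the RNA sequencing of mouse brain, and all 45 of them were among the 48795 gene identifiers of the table. The rule uses gene names, with no threshold on measured values. All 45 genes passed the filter on low counts in each comparison, and the lowest count of any of them in a mouse was 15, for Cdc6.

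A dividing cell passes a restriction point in G1 when D-type and E-type cyclins with their kinases inactivate the retinoblastoma proteins and release E2F transcription factors, which switch on the genes of DNA replication. Later in the cycle FOXM1 and MYBL2, with the MuvB complex, raise the genes of mitosis, among them CDK1 with its cyclins, the Aurora and Polo kinases, centromere proteins and spindle motors. In the postnatal forebrain most neurons have left the cycle, and dividing cells are found mainly among progenitors near the ventricles, in the dentate gyrus and among glial precursors.

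RNA was taken from the right hemisphere at postnatal day 11, after removal of the olfactory bulbs and the cerebellum. The 5 nlsYAP5SA mice had the genotype NexCre +/- YAP5SAnls +/-. They carry 1 transgene for a form of YAP1 that LATS kinases cannot phosphorylate and that is directed to the nucleus, and 1 allele of NEX-Cre, which removes the stop in front of the transgene in precursors of pyramidal neurons that express NEX (NeuroD6) and in the cells they give rise to. The 5 control mice were littermates with the transgene and without Cre (NexCre -/- YAP5SAnls +/-). The 3 C57BL/6 mice were wild type, of the same age and from other litters. Recombination is limited to the NEX lineage while the RNA is from the whole hemisphere, so that more dividing cells and more RNA per dividing cell cannot be told apart, and a change in a small lesion would be diluted. The matings that gave each littermate are not assigned in the labels. Each sample is a separate mouse by its label.

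The libraries held between 20871566 and 25524349 estimated counts. Levels are given in CPM, the counts in a library scaled to 1000000. Yap1, the gene of the transgene's product, lay between 19.9 and 22.3 CPM among the controls and between 22.6 and 26.6 CPM among nlsYAP5SA mice. Among C57BL/6 mice it lay between 19.4 and 21.6 CPM. The nlsYAP5SA mice did not overlap the others, which fits their labels, but the margin was narrow. The log2 fold change against control was 0.23, and 10.1% of all genes had no overlap between nlsYAP5SA and control. Summed RNA of 6 excitatory neuron markers was between 2079 and 3014 CPM in every mouse, as the labelled tissue has it. Summed RNA of 4 Y-linked genes was at or under 0.0941 CPM in nlsYAP5SA replicates 1, 2 and 5 and in C57BL/6 replicate 2, and at least 90.9 CPM in the other mice, all 5 controls included. Ttr, the transthyretin of the choroid plexus, was under 3 CPM in control replicates 2, 3 and 4, nlsYAP5SA replicate 4 and C57BL/6 replicate 1, and at least 55.2 CPM in the others. The part of either difference in the results was not tested beyond the fits that carry these levels as a covariate or keep only the mice with Y-linked RNA or with Ttr above 50 CPM.

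The promoters of the listed genes are shown first because the members share sequence features that the list did not use. RefSeq windows of GRCm38.p6, from 250 bases before to 50 bases after the annotated start, were matched for 36 of the 45 genes, with 39 windows in all. Ccnd1, Ccnd2, Ccne2, Mcm4, Ccna2, Foxm1, Aurkb, Kif20a and Tpx2 had no entry. Both strands were searched for the cell cycle genes homology region (CHR, with the letters TTTGAA or the letters TTCGAA), which the MuvB complex binds, for the CCAAT box (CCAAT), for E2F matches (the letters TTCCCGC, the letters TTGGCGC, the letters TTCGCGC and the letters TTGCCGC) and for the TEAD letters (GGAATG), TEAD factors being the DNA-binding partners of YAP1. E2F matches can overlap each other on opposite strands, and a CCAAT box read on the opposite strand can share letters with an E2F match. Among the 19 windows of mitosis genes, 13 held a CHR match (68.4%), against 19.2% of all 32851 windows. All 13 of these windows had a CHR match within 50 bases of the start, which 5.31% of all windows had. Among the 12 windows of replication and deoxynucleotide genes, 9 held an E2F match (75.0%), against 9.57% of all windows, and 2 held a CHR match. A CCAAT box was found in 15 of the 19 and in 9 of the 12 windows, against 37.4% of all windows. TEAD letters were found in 4 of the 39 windows (10.3%), against 14.7% of all windows.

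The stretches below run from 130 bases before to 20 bases after the start of 6 genes, 5′ to 3′ in the direction of transcription, with the matches in capitals. Top2a and Mki67 are the usual markers of dividing cells, Ccnb2 and Cdc20 carry a CHR beside CCAAT boxes near the start, Mcm6 carries overlapping E2F matches, and Ccnd3, with 2 annotated starts, is 1 of the genes that rose. They lie at chr11:99024170-99024319 (minus strand, Top2a), chr7:135716360-135716509 (minus, Mki67), chr9:70421535-70421684 (minus, Ccnb2), chr4:118437324-118437473 (minus, Cdc20), chr1:128359686-128359835 (minus, Mcm6), chr17:47504921-47505070 (plus, Ccnd3, first start) and chr17:47593337-47593486 (plus, Ccnd3, second start).
Top2a: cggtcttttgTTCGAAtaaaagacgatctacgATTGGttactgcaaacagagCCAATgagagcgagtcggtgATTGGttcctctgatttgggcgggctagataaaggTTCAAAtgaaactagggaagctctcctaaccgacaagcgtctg
Mki67: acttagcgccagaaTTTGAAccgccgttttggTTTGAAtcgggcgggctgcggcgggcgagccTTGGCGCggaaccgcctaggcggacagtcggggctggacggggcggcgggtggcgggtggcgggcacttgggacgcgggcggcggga
Ccnb2: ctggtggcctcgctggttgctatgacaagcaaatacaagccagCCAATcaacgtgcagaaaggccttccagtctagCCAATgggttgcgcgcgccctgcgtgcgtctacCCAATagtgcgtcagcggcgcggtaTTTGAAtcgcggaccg
Cdc20: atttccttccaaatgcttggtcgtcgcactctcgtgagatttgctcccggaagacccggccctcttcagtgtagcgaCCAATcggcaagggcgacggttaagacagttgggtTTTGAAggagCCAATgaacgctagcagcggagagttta
Mcm6: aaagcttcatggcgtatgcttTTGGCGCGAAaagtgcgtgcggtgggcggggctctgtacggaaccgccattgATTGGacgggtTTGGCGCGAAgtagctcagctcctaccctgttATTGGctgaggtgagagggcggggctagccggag
Ccnd3 first start: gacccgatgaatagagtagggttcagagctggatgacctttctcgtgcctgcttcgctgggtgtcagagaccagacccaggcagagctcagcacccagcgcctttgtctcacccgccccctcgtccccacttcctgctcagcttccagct
Ccnd3 second start: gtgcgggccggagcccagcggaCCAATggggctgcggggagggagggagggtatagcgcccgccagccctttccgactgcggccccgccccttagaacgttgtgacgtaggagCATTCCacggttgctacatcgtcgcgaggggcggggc

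In these stretches Top2a holds CHR matches 120 and 23 bases before the start and a CCAAT box at 3 places between them. Ccnb2 has its CHR 5 bases after the start, and Cdc20 has it 18 bases before, between CCAAT boxes. Mki67 has CHR matches 116 and 98 bases before the start and an E2F match 67 bases before it. Mcm6 has no CHR in its window. The first Ccnd3 start has none of the 4 motifs in its stretch, and the second has a CCAAT box and TEAD letters 17 bases before the start. These matches are letters in a window and were not tested for binding.

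**Figure D1:**
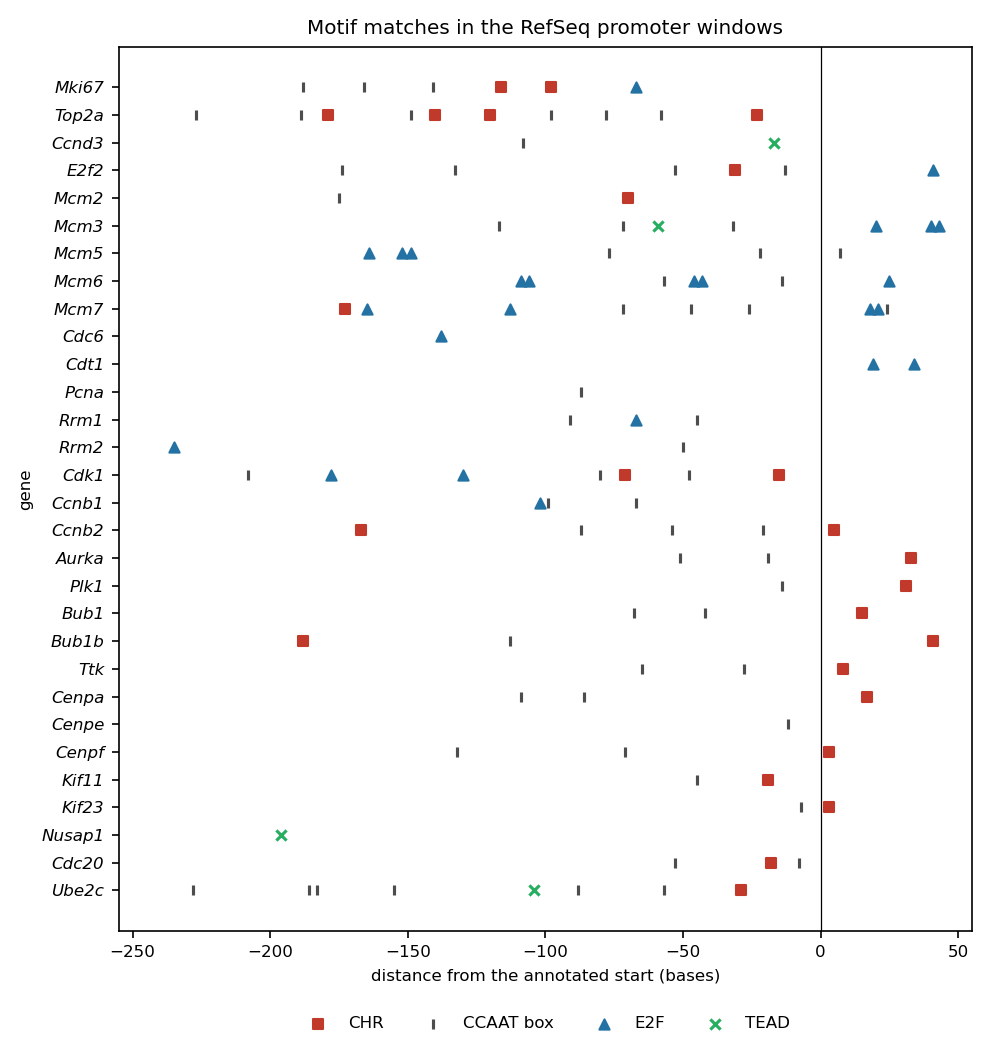
Positions of matches to the CHR, CCAAT box, E2F and TEAD motifs (rows are the listed genes with at least 1 match, x axis the distance in bases from the RefSeq start, all windows of a gene on 1 row). Most CHR matches of the mitosis genes lie near the start, and most E2F matches are on the rows of the replication genes.

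The first question was whether the listed genes were higher or lower in the hemisphere of nlsYAP5SA mice than in control littermates. Of the 45 genes, 2 rose and none fell by the quasi-likelihood test of edgeR, with p-values adjusted by the Benjamini-Hochberg method and a threshold of 0.05, a share of 4.44%. Over all 16315 genes tested, 10.8% were called and 7.36% were called higher. Both genes were D-type cyclins, Ccnd1 and Ccnd3. The median log2 fold change of the 45 genes was 0.01, between -0.28 for Mcm2 and 0.36 for Ccnd3, and the median over all genes was -0.01. Positive values were found for 25 genes and negative values for 20. The 95% interval of the log2 fold change lay between -1 and 1 for 45 of 45 genes, so that a change of 2-fold in the hemisphere as a whole was outside the interval of each of them, while that of Birc5 still reached from -0.41 to 0.88.

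D-type cyclins activate CDK4 and CDK6 in G1. Ccnd1 (ENSMUSG00000070348, chr7:144929931-144939925, minus strand, GRCm38) encodes cyclin D1. Its level was 49.1, 53.7, 52.0, 54.0 and 58.8 CPM in the 5 controls, 62.6, 69.6, 56.1, 78.5 and 66.0 CPM in the 5 nlsYAP5SA mice and 53.1, 52.8 and 51.4 CPM in the 3 C57BL/6 mice. Only nlsYAP5SA replicate 3 was within the range of the controls, and all 5 nlsYAP5SA mice were above the 3 C57BL/6 mice. The log2 fold change was 0.31 ± 0.08 (SE), with an adjusted p of 0.0272 by edgeR's quasi-likelihood test. Ccnd3 (ENSMUSG00000034165, chr17:47505051-47599691, plus strand) encodes cyclin D3. It was at 17.2, 14.8, 13.9, 17.87 and 14 CPM in controls, at 23.2, 19.0, 19.5, 17.94 and 20.4 CPM in nlsYAP5SA mice and at 16.5, 17.7 and 16.2 CPM in C57BL/6 mice. The nlsYAP5SA mice did not overlap the controls, by a margin of less than 0.1 CPM, and this was the 1 gene of the 45 without overlap, against 10.1% of all genes. The log2 fold change was 0.36 ± 0.10 (SE), with an adjusted p of 0.0292 by the same edgeR test.

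The third D-type cyclin did not pass the test. Ccnd2 (ENSMUSG00000000184), the most abundant member in counts and the D-type cyclin of many neural progenitors, was at 139, 157, 163, 163 and 159 CPM in controls, at 137, 153, 136, 202 and 150 CPM in nlsYAP5SA mice and at 155, 146 and 160 CPM in C57BL/6 mice. Its log2 fold change was -0.01, with an interval from -0.23 to 0.21. Cyclin D genes overlap others on the opposite strand, Ccnd1 with LTO1 and Ccnd3 with Bysl, and the sources used here do not name a strand setting. LTO1 (log2 fold change -0.04) and Bysl (-0.16) were not called.

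Both calls lay near the threshold. Without control replicates 2 or 3 or nlsYAP5SA replicate 5, none of the 45 genes was called, while the log2 fold changes were 0.31, 0.30 and 0.32 for Ccnd1 and 0.34, 0.32 and 0.35 for Ccnd3. Ccnd1 was also lost without control 1 or 4 or nlsYAP5SA 2, at log2 fold changes of 0.29, 0.32 and 0.30 (adjusted p of 0.0534, 0.0559 and 0.0690). Ccnd3 was also lost without control 5 or nlsYAP5SA 1, at 0.32 and 0.31 (adjusted p of 0.0720 and 0.0711, by edgeR's test each time). With the summed Y-linked RNA as a covariate the log2 fold changes were 0.33 for Ccnd1 and 0.27 for Ccnd3 and neither was called, in a fit that called 542 of all 16315 genes against 1761 without the covariate. With Ttr as a covariate Ccnd1 was called (0.35) and Ccnd3 was not (0.32, adjusted p 0.0796 by edgeR's test).

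**Figure D2:**
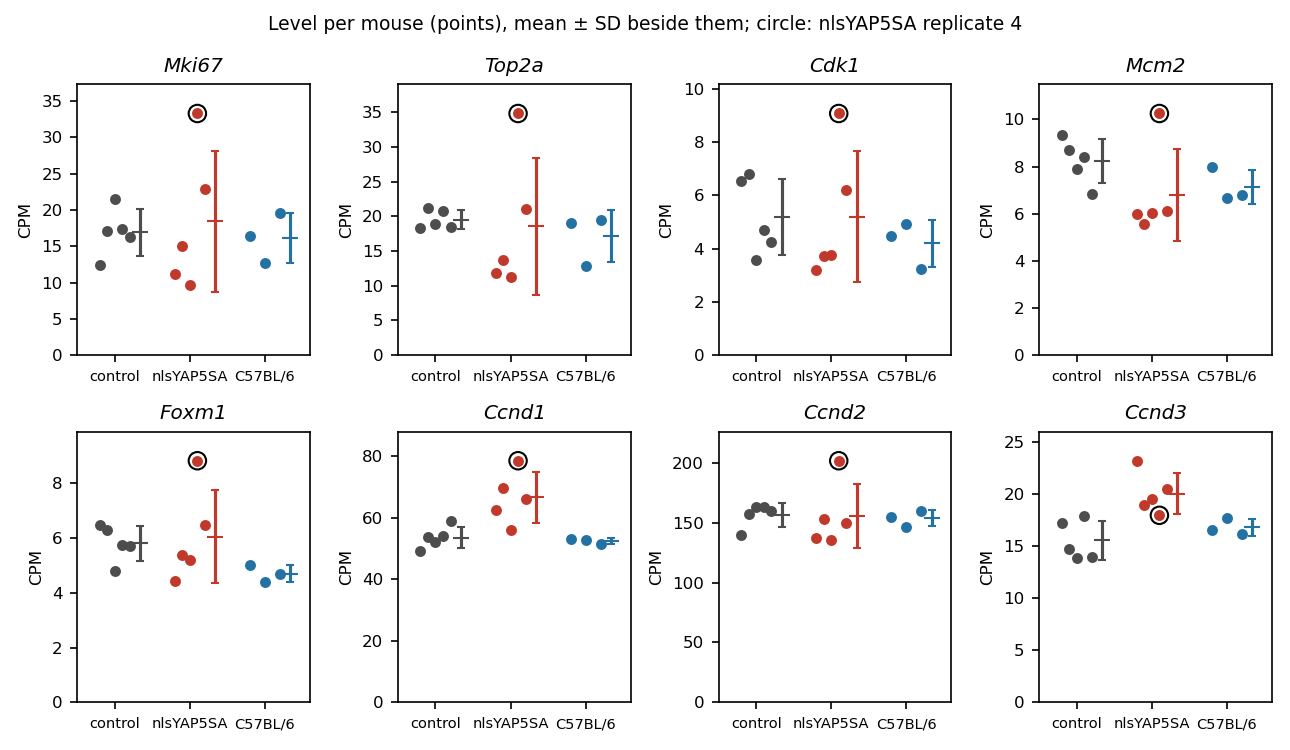
Level in CPM (y axis, from 0) of 8 listed genes in each mouse of the 3 groups, with the mean and SD beside the points and nlsYAP5SA replicate 4 circled. The circled mouse is the highest of all 13 for each gene except Ccnd3, for which it is the lowest of the 5 nlsYAP5SA mice.

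Among the proliferation markers, Mki67 encodes the Ki-67 antigen, present in cycling cells and absent from resting ones. It was at 12.4, 17.1, 21.5, 17.3 and 16.3 CPM in controls, at 11.2, 15, 9.7, 33.3 and 22.9 CPM in nlsYAP5SA mice and at 16.4, 12.6 and 19.5 CPM in C57BL/6 mice. The nlsYAP5SA mice lay on both sides of the controls, with replicates 4 and 5 above and replicates 1 and 3 below all 5 of them. The log2 fold change was 0.12, with an interval from -0.51 to 0.75. Top2a, the topoisomerase that separates replicated DNA, was at 18.3, 21.2, 18.9, 20.8 and 18.5 CPM in controls, at 11.8, 13.7, 11.3, 34.8 and 21.1 CPM in nlsYAP5SA mice and at 19.0, 12.8 and 19.5 CPM in C57BL/6 mice. Controls spanned a narrow range for this gene, and 3 nlsYAP5SA mice were below it while replicate 4 was above it. The log2 fold change was -0.08, with an interval from -0.65 to 0.50.

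E-type cyclins, which act with CDK2 at the start of S phase, and the activating E2F factors gave 0 calls among 4 genes. E2f1, a transcription factor for replication genes, was at 11.2, 11.5, 10.6, 9.82 and 9.44 CPM in controls, at 12.1, 9.22, 11.1, 8.82 and 10.4 CPM in nlsYAP5SA mice and at 11.8, 11.4 and 10.4 CPM in C57BL/6 mice. The groups overlapped, and here nlsYAP5SA replicate 4 was the lowest of all 13 mice. Ccne1, Ccne2 and E2f2 had log2 fold changes of -0.12, -0.07 and 0.06.

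The replication group holds the subunits of the MCM2-7 helicase, its loaders Cdc6 and Cdt1, and Pcna, the sliding clamp of the polymerases. None of its 9 genes was called. Mcm2 was at 9.36, 8.72, 7.92, 8.39 and 6.84 CPM in controls, at 6.01, 5.55, 6.02, 10.3 and 6.13 CPM in nlsYAP5SA mice and at 7.97, 6.66 and 6.78 CPM in C57BL/6 mice. Every nlsYAP5SA mouse but replicate 4 was below all 5 controls, and replicate 4 was above them. The log2 fold change was -0.28 with an adjusted p of 0.316 by edgeR's test, and without replicate 4 it was -0.48 with an adjusted p of 0.00978. Leaving out the highest mouse lowers the value by the choice of mouse. With the summed Y-linked RNA as a covariate the Mcm2 value was -0.04, and among mice with Y-linked RNA alone it was -0.03, with neither called. The controls all have Y-linked RNA, and nlsYAP5SA replicates 1, 2 and 5 lack it. Of the nlsYAP5SA mice, the fit on Y-linked RNA alone thus kept only replicates 3 and 4, at 6.02 and 10.3 CPM. Replicate 3, with Y-linked RNA, lay within the range of replicates 1, 2 and 5. Y-linked RNA and replicate 4 cannot be told apart in these fits. Pcna, with 28.9 CPM per kilobase the most abundant of the 45 per transcript length, was at 50.1, 48.0, 36.2, 42.5 and 42.9 CPM in controls, at 47.6, 38.8, 44.4, 47.9 and 42.4 CPM in nlsYAP5SA mice and at 46.5, 44.4 and 38.7 CPM in C57BL/6 mice. Its groups overlapped throughout. Mcm3, Mcm4, Mcm5, Mcm6, Mcm7, Cdc6 and Cdt1 had log2 fold changes between -0.07 and 0.12. Cdt1 lies inside Gm20388 on the same strand, so that its counts depend on how reads were divided.

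The deoxynucleotide genes supply the building blocks of DNA and gave 0 calls among 3. Rrm1, the large subunit of ribonucleotide reductase, was at 25.4, 26.5, 24.7, 24.8 and 24.2 CPM in controls, at 24.3, 23.6, 25.8, 31.7 and 26.8 CPM in nlsYAP5SA mice and at 23.2, 21.3 and 25.9 CPM in C57BL/6 mice. Only nlsYAP5SA replicate 4 stood clear of the other mice. Rrm2, the small subunit that is made in S phase, and Tyms, thymidylate synthase, had log2 fold changes of -0.13 and 0.08.

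The mitotic kinase CDK1 and cyclins A2, B1 and B2 drive entry into mitosis, and none of their 4 genes was called. Cdk1 was at 6.54, 6.81, 3.58, 4.70 and 4.25 CPM in controls, at 3.21, 3.72, 3.77, 9.08 and 6.22 CPM in nlsYAP5SA mice and at 4.48, 4.93 and 3.23 CPM in C57BL/6 mice. Controls themselves fell into a higher pair and 3 lower mice, and nlsYAP5SA replicate 4 was above them all. The log2 fold change was 0.00, with an interval from -0.62 to 0.62. Ccna2 was at 8.50, 9.15, 8.25, 8.31 and 8.73 CPM in controls, at 6.19, 5.83, 5.11, 14.2 and 9.36 CPM in nlsYAP5SA mice and at 8.51, 7.47 and 6.86 CPM in C57BL/6 mice. No nlsYAP5SA mouse was inside the range of the controls, 3 being below it and 2 above. Ccnb1 and Ccnb2 had log2 fold changes of 0.13 and 0.04.

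Of the late-cycle transcription factors, Foxm1 was at 6.46, 6.30, 4.79, 5.75 and 5.71 CPM in controls, at 4.43, 5.36, 5.20, 8.82 and 6.46 CPM in nlsYAP5SA mice and at 5.02, 4.41 and 4.68 CPM in C57BL/6 mice. Replicate 4 was above the control range and replicate 1 below it. Foxm1 and Mybl2 had log2 fold changes of 0.06 and -0.02, and neither was called.

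The kinases of mitosis and its checkpoint also gave 0 calls, among 7 genes. Bub1b, which encodes the spindle checkpoint protein BUBR1, was at 5.84, 4.93, 4.17, 4.74 and 4.15 CPM in controls, at 4.02, 4.33, 3.90, 7.17 and 4.91 CPM in nlsYAP5SA mice and at 4.44, 4.02 and 3.71 CPM in C57BL/6 mice. The groups overlapped, with replicate 4 again on top. The Aurora kinase genes Aurka and Aurkb, the Polo-like kinase gene Plk1, the checkpoint kinase genes Bub1 and Ttk, and Melk had log2 fold changes between -0.06 and 0.19.

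Centromere and chromosomal passenger proteins attach chromosomes to the spindle and oversee cytokinesis, and none of their 4 genes was called. Cenpf was at 6.25, 9.0, 8.71, 7.01 and 9.02 CPM in controls, at 4.43, 6.59, 4.59, 13.6 and 10.7 CPM in nlsYAP5SA mice and at 8.78, 6.37 and 9.92 CPM in C57BL/6 mice. Replicates 4 and 5 of nlsYAP5SA were above all controls, and replicates 1 and 3 below them. Cenpe, a kinesin of the kinetochore, had a log2 fold change of 0.32 with an adjusted p of 0.350 by edgeR's test. Cenpa, the histone H3 variant of centromeres, and Birc5, which encodes survivin, had 0.14 and 0.23.

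Spindle motors and assembly factors gave 0 calls among 5 genes. Tpx2, the activator of Aurora A on the spindle, was at 8.99, 9.39, 7.33, 7.84 and 8.31 CPM in controls, at 6.05, 6.35, 6.15, 13.9 and 9.83 CPM in nlsYAP5SA mice and at 8.87, 6.56 and 7.22 CPM in C57BL/6 mice. As for Ccna2, no nlsYAP5SA mouse was inside the control range. The kinesin genes Kif11, Kif20a and Kif23 and the microtubule-binding Nusap1 had log2 fold changes between -0.17 and 0.01. Ube2c, the ubiquitin-conjugating enzyme of the anaphase-promoting complex, was at 5.15, 3.72, 3.58, 3.40 and 3.26 CPM in controls, at 2.48, 2.78, 2.51, 5.82 and 3.65 CPM in nlsYAP5SA mice and at 3.90, 2.87 and 2.5 CPM in C57BL/6 mice. Replicates 1, 2 and 3 of nlsYAP5SA were below all controls. Ube2c and Cdc20, the activator of that complex, had log2 fold changes of -0.15 and -0.13 and were not called.

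**Figure D3:**
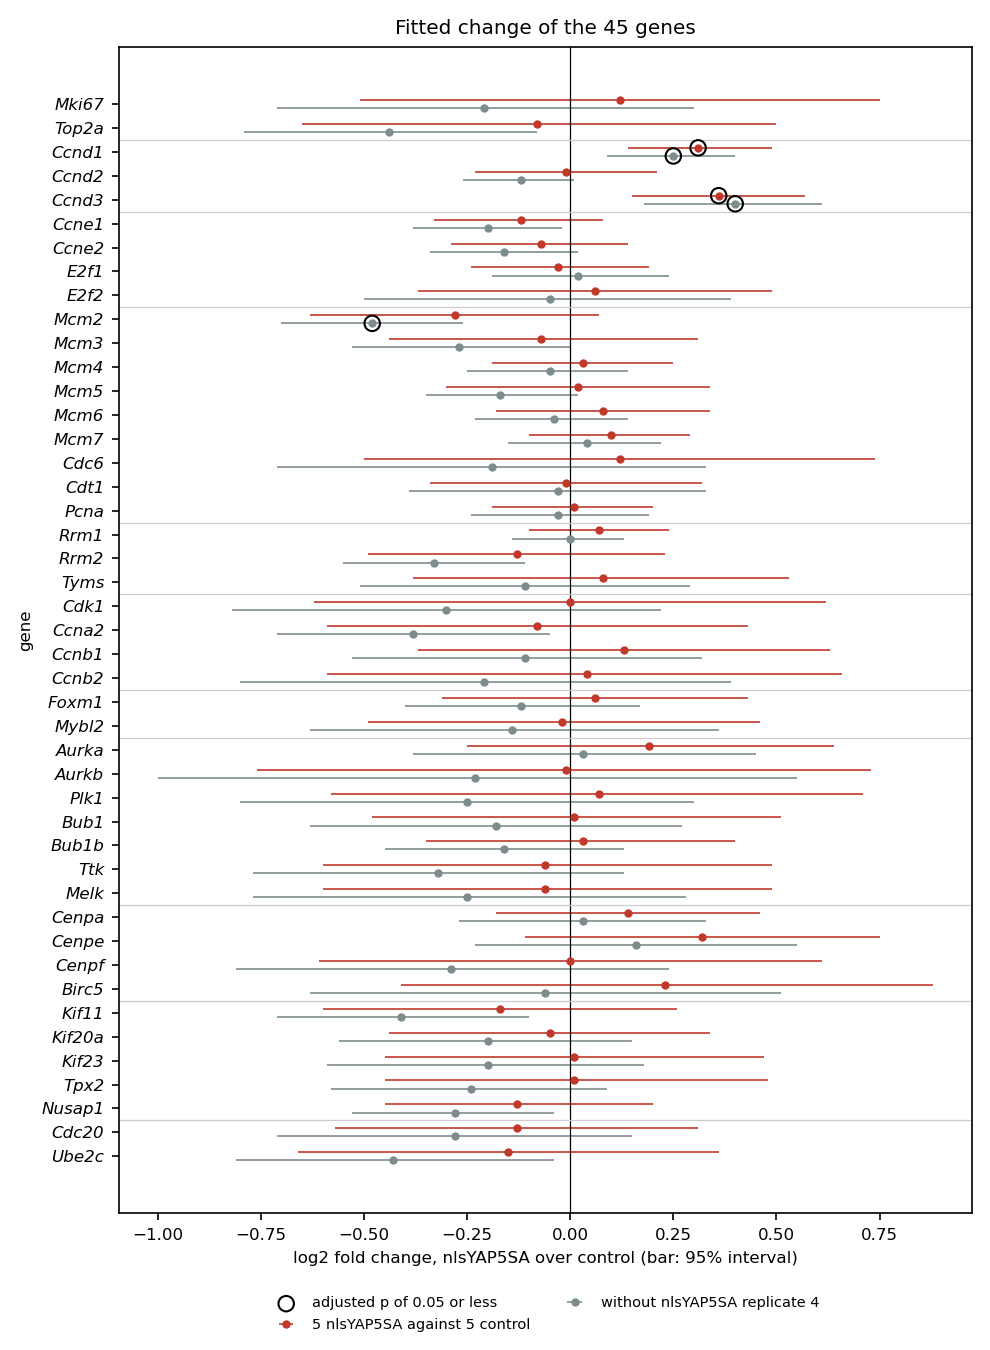
Log2 fold change of nlsYAP5SA over control with its 95% interval (x axis) for the 45 genes (rows, by role), with all 5 nlsYAP5SA mice and without replicate 4, and genes at an adjusted p of 0.05 or less circled. With all mice the points scatter around 0 apart from Ccnd1 and Ccnd3, and without replicate 4 most move below 0.

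The 45 genes spread more widely among the nlsYAP5SA mice than among the controls. The SD of log2(CPM + 0.5) was larger in the 5 nlsYAP5SA mice than in the 5 controls for 40 of 45 genes (88.9%), against 44.6% of all genes, and the median ratio of the SDs was 2.0, against 0.931. Of the 24 genes of mitosis, 22 had the larger SD in nlsYAP5SA mice, as had 10 of the 12 replication and deoxynucleotide genes. Replicate 4 was the highest of the 13 mice for 39 of the 45 genes (86.7%), against 9.27% of all genes, and the highest of the 5 nlsYAP5SA mice for 42, against 23.4% of all genes, the exceptions being Ccnd3, E2f1 and Cdt1. It was the highest nlsYAP5SA mouse for 24 of 24 mitosis genes and 11 of 12 replication and deoxynucleotide genes. Its level over the median of the other 4 nlsYAP5SA mice had a median ratio of 1.69 over the 45 genes and of 1.0 over all genes. By role that ratio was 2.64 for the proliferation markers, 2.27 for CDK1 and its cyclins, 1.99 for the spindle genes, 1.44 for the replication genes and 1.22 for the D-type cyclins.

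**Figure D4:**
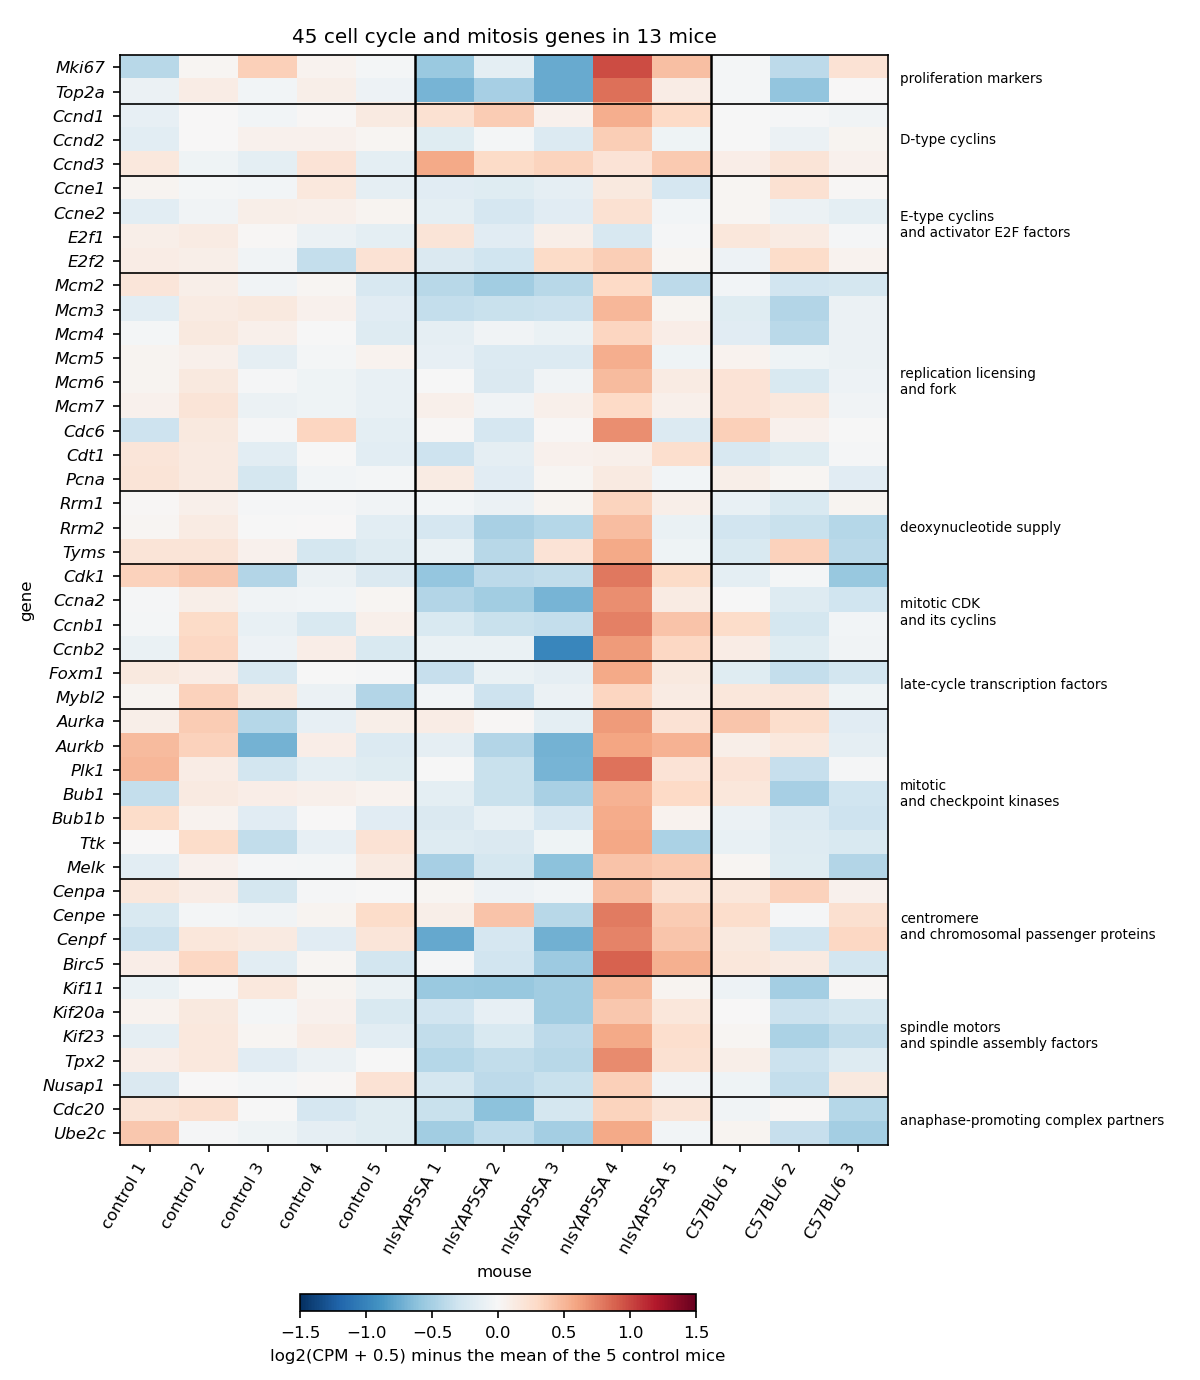
Log2(CPM + 0.5) of each of the 45 genes (rows, grouped by role) in each of the 13 mice (columns), as the difference from the mean of the 5 controls. The column of nlsYAP5SA replicate 4 is above the controls for most genes, and the columns of replicates 1, 2 and 3 are below for most mitosis genes.

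As a single value per mouse, the mean difference from the controls over the 45 genes on the log2 scale was 0.03, 0.13, -0.08, -0.02 and -0.07 in controls, -0.19, -0.23, -0.28, 0.50 and 0.13 in nlsYAP5SA mice and 0.03, -0.13 and -0.12 in C57BL/6 mice. Replicates 1, 2 and 3 of nlsYAP5SA were below all 5 controls and replicate 4 above. Over the 24 mitosis genes the nlsYAP5SA values were -0.26, -0.26, -0.43, 0.59 and 0.21, while the controls reached from -0.13 to 0.17. Over the D-type cyclins the nlsYAP5SA values were 0.07 to 0.38, those of controls -0.04 to 0.09 and those of C57BL/6 mice 0.02 to 0.03, so that nlsYAP5SA overlapped the controls.

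Each mouse was left out in turn, and the fit without replicate 4 is detailed because of this spread. Replicate 4 was the highest nlsYAP5SA mouse for 42 of the 45 genes, so leaving it out lowers their values by the choice of mouse. The values and calls without it are a description and not a separate test. Without it the median log2 fold change of the 45 genes was -0.18, with 38 genes negative and 7 positive, while the median over all genes was -0.01. Of the listed genes, 3 were called, against 11.5% of all genes, with Ccnd1 (0.25, adjusted p 0.0455 by edgeR's test) and Ccnd3 (0.40, adjusted p 0.0234) higher and Mcm2 lower. Rrm2 (-0.33, adjusted p 0.0548) and Kif11 (-0.41, adjusted p 0.0871) did not pass the test. Without this mouse the SD was still larger in nlsYAP5SA mice for 28 of the 45 genes (62.2%), against 39.3% of all genes, and the median ratio of the SDs fell from 2.0 to 1.26, against 0.86 over all genes.

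Marker sums of some cell types also set replicate 4 apart from the other nlsYAP5SA mice, and those of others did not. Its summed level of 7 markers of neural progenitors and immature neurons (Dcx, Sox11, Eomes, Dlx1, Dlx2, Nes and Sox2) was 497.5 CPM, against 355 to 399.8 CPM in the other nlsYAP5SA mice and 337 to 416 CPM in controls, and it was the highest nlsYAP5SA mouse for 7 of the 7. Its sum of 6 excitatory neuron markers, 2079 CPM, was the lowest of the 13 mice, while it was the highest nlsYAP5SA mouse for 3 of these 6 markers, with a median ratio to the other 4 of 1.03. Its sum of 6 choroid plexus markers was 13.3 CPM, against 72.7 to 309 CPM in the other nlsYAP5SA mice and 10.9 to 236 CPM in controls. Its sums for microglia (533 CPM) and oligodendrocyte precursors (556 CPM) were within and just under the range of the other nlsYAP5SA mice (426 to 561 and 558 to 646 CPM). Its sum of 7 astrocyte markers, 4861 CPM, was also under that of the other nlsYAP5SA mice (5072 to 6642 CPM) and within that of controls (2966 to 5421 CPM). Its sum for ciliated ependymal cells, 26.8 CPM, was just under the other nlsYAP5SA mice (27.3 to 29.2 CPM), and those for endothelial cells and red blood cells were within their range. Their part in the levels of the listed genes was not tested.

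Between the whole groups, 6 of 8 microglia markers rose in nlsYAP5SA mice and none fell, 3 of 7 astrocyte markers rose and 1 fell, and 2 of 7 oligodendrocyte precursor markers fell. None of the 7 progenitor markers was called by edgeR's test, which called 10.8% of all genes, 7.36% as higher. Endothelial markers fell for 2 of 6, choroid plexus markers rose for 1 of 6, ependymal cilia markers rose for 2 of 6, 1 of 6 excitatory neuron markers fell, and 0 of 5 red blood cell genes were called. The part of these shifts in Ccnd1 and Ccnd3 was not tested.

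**Figure D5:**
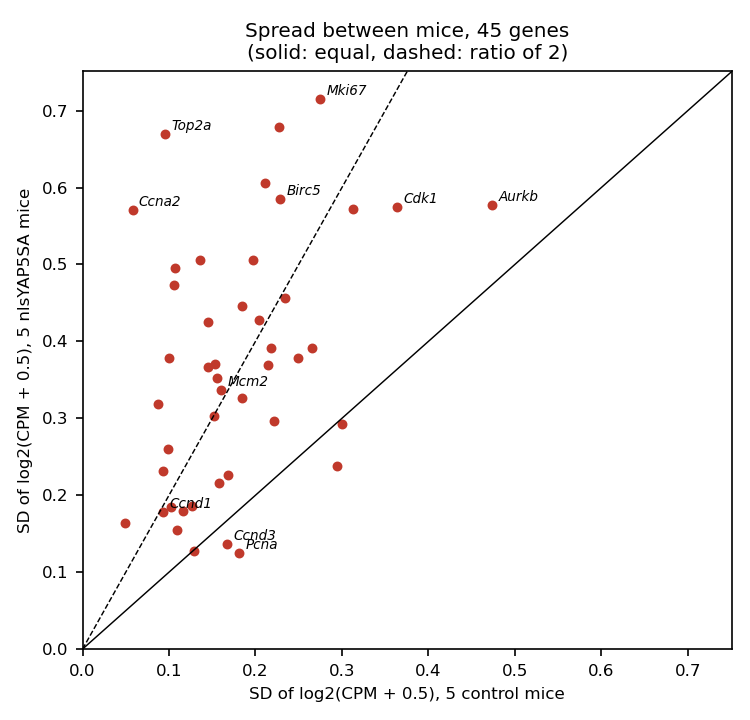
SD of log2(CPM + 0.5) among the 5 nlsYAP5SA mice (y axis) against the SD among the 5 control mice (x axis) for the 45 genes (points), with lines at equal SDs and at a ratio of 2. Points lie above the line of equal SDs for 40 of the 45 genes, Top2a and Mki67 among the highest.

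Other genes of the cycle, taken from 4 lists by function, were tested in the same fit. That fit called 10.8% of all genes, and 7.36% were called higher. Of 19 other G1 genes, 1 rose and none fell. It was Cdk6, a kinase partner of the D-type cyclins, at 11.8, 12.1, 13.2, 12.3 and 12.1 CPM in controls and 17.7, 18.3, 15.5, 24.4 and 23.0 CPM in nlsYAP5SA mice. The groups did not overlap, and the log2 fold change was 0.68 ± 0.12 (SE; adjusted p 0.00214, edgeR's test). Of 7 inhibitors of cyclin-dependent kinases, 4 rose and none fell. Cdkn2b, which encodes p15, was at 0.94, 1.06, 0.708, 0.839 and 0.661 CPM in controls and 3.52, 2.31, 2.38, 2.22 and 2.57 CPM in nlsYAP5SA mice (log2 fold change 1.61, adjusted p 0.000163). Cdkn2a, which encodes p16 and p19ARF, had between 0 and 4 counts in each control and between 14 and 33 in each nlsYAP5SA mouse (adjusted p 0.000204), too few in controls for a firm fold. Cdkn1c (p57; 0.42, adjusted p 0.0471) and Cdkn1b (p27; 0.16, adjusted p 0.0461) rose by less, all by edgeR's test. Replicate 4 was the highest nlsYAP5SA mouse for 1 of these 7 inhibitors.

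Of 38 other DNA replication genes none was called by edgeR's test, and their log2 fold changes lay between -0.26 and 0.55. Of 60 other mitosis genes 1 fell, Pttg1, the gene of securin, which was at 13.2, 11.7, 13.5, 12.8 and 11.4 CPM in the 5 controls and at 8.99, 9.22, 10.2, 9.30 and 10.5 CPM in the nlsYAP5SA group, without overlap (-0.37 ± 0.08 SE, adjusted p 0.0089, edgeR's test). The median over the 60 genes was -0.04. Replicate 4 was the highest nlsYAP5SA mouse for 53 of the 60 and for 24 of the 38, against 23.4% of all genes.

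Comparison with the C57BL/6 mice shows how the 45 genes differ between wild-type mice and the controls that carry the silent transgene. None of the 45 was called between C57BL/6 and control by edgeR's test or by DESeq2, against 0.169% of all 16546 genes by edgeR. At an unadjusted p of 0.05 or less there were 2, Rrm2 (-0.37) and Foxm1 (-0.30), both lower in C57BL/6, a share of 4.44% against 3.78% of all genes. The median log2 fold change was -0.08, with 12 genes positive and 33 negative, and the median over all genes was 0.00.

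Between nlsYAP5SA and C57BL/6 mice none of the 45 was called by edgeR's test, against 6.38% of all 16641 genes, and DESeq2 called 1, Ccnd1. At an unadjusted p of 0.05 or less there were 2, Ccnd1 (0.33, adjusted p 0.0841 by edgeR's test) and Ccnd3, a share of 4.44% against 21.0% of all genes. The median was 0.12, with 32 genes positive, and the 95% interval lay between -1 and 1 for 43 of the 45. Without nlsYAP5SA replicate 4 the median was -0.09, with 12 genes positive and 33 negative, against -0.01 over all genes, and none of the 45 was called. Of the other cycle genes, Cdk6 (0.71), Cdkn2a and Cdkn2b (1.29) were higher than in C57BL/6 mice and Pttg1 (-0.54) and Hjurp, a chaperone of the centromeric histone (-0.44), were lower. Hjurp was at 31.2 to 37.5 CPM in C57BL/6 mice, at 23.1 to 28.5 CPM in nlsYAP5SA mice and at 22.5 to 26.1 CPM in controls, so that nlsYAP5SA mice overlapped the controls. The comparisons share mice, so their values are given side by side and are not independent.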

How the data were processed

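RNA of the right hemisphere was sequenced in 13 mice, assigned to 5 control, 5 nlsYAP5SA and 3 C57BL/6 by the labels. The authors prepared mRNA libraries, trimmed reads with CutAdapt 1.5, mapped them with STAR (2.2.2a in the submitters' processing notes) to GRCm38, and deposited estimated counts per gene made with RSEM 1.3.0, neither normalized nor filtered. RSEM divides reads among near-identical genes, and the strand setting is not given in the sources used here. Symbols were matched for 48349 of 48795 identifiers. Positions are from GENCODE M21, and levels per kilobase use the longest annotated transcript.

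Estimated counts were rounded, normalized with TMM, and filtered with filterByExpr (minimum count 10, minimum total 15). All genes were tested, two-sided, between the 2 groups compared with edgeR 4.0.16 (quasi-likelihood) in R 4.3.3, with p-values adjusted by the Benjamini-Hochberg method over the genes tested and a threshold of 0.05. CPM are counts scaled to 1000000 after TMM. SDs and means over genes use log2(CPM + 0.5). DESeq2 1.42.0, other scalings and filters, a single fit of all 13 mice, Y-linked and Ttr covariates, a GC and length offset, a replicate block and leaving out each mouse were alternatives. Fits restricted to mice with Y-linked RNA, or with Ttr above 50 CPM, were added after seeing the data. Scripts were tested on simulated data. Figures and summaries were made with matplotlib 3.10.9, pandas 2.3.3, scipy 1.17.1 and numpy 2.4.6 under Python 3.11.15.

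The 45 genes, the lists, the marker genes and the genes named were chosen with earlier results of these data known. All 45 are given by role. Values in every mouse are given for called genes, for Mki67, Top2a, Cdk1, Ccnd1, Ccnd2, Mcm2, Pcna and Foxm1, and for the gene of each role with the highest mean count. Of the marker genes, 1 is not reported here. Genes of other lists are named where called, up to 5 a direction. The libraries held totals of 20871566 to 25524349 counts.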

Additional observations from a re-analysis of the deposited data

Results flagged for a closer look

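Dixon's test at its 95% critical value was applied to 90 groups of 5 mice (45 genes in the control and the nlsYAP5SA group). It found 8 with 1 mouse far from the others. The groups share the same mice and the genes vary together, so this count has no simple chance level. Genes outside the list were not tested this way. In the nlsYAP5SA group, 5 genes had replicate 4 as the outlying high mouse. It was at 202 CPM for Ccnd2 (others 136 to 153), 11.6 CPM for Ccne1 (others 8.71 to 9.48), 10.3 CPM for Mcm2 (others 5.55 to 6.13), 10.9 CPM for Mcm5 (others 6.26 to 6.93) and 1.82 CPM for Cdc6 (others 0.706 to 0.953). In the control group the outlying mouse was replicate 1, at 139 CPM for Ccnd2 (others 157 to 163), 1.8 CPM for Bub1 (others 2.55 to 2.74) and 5.15 CPM for Ube2c (others 3.26 to 3.72). The C57BL/6 group of 3 mice was not tested.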

How the results depend on the processing

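In the comparison of nlsYAP5SA with control, 2 genes were called with all mice. The number was 1 with library size alone or the Ttr covariate. It was 0 with the Y-linked covariate, in mice with Y-linked RNA only or in mice with Ttr above 50 CPM only. The fit on Y-linked RNA only kept nlsYAP5SA replicates 3 and 4 and all controls, and the last left 4 nlsYAP5SA and 2 control mice. The log2 fold changes in these fits, in that order, were 0.31, 0.35, 0.33, 0.32 and 0.23 for Ccnd1, against 0.31, and 0.36, 0.32, 0.27, 0.26 and 0.38 for Ccnd3, against 0.36. Over all genes they called 1499, 1480, 542, 334 and 490, against 1761 with all mice, TMM and no covariate. Leaving out each mouse gave 0 to 3 calls, with medians of the log2 fold change from -0.18 to 0.08. Against C57BL/6, nlsYAP5SA mice had 1 call in the fit of all 13 mice, with the GC and length offset or with DESeq2, and 0 to 1 when each mouse was left out, and the median with the replicate block was -0.20, against 0.12, in a fit that drops nlsYAP5SA replicates 4 and 5, which have no C57BL/6 mouse of their number. Under the 22 alternatives no call changed sign, 19 calls of Ccnd1 or Ccnd3 were lost and 1, Mcm2, was gained. Of 990 log2 fold changes of single genes under alternatives, 173 had the other sign, none of them called. The restricted fits also had fewer mice. The cause of the lost calls was not tested.

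Replicate numbers do not pair the mice. Correlations of deviations between control and nlsYAP5SA mice of the same number were 0.33, -0.187, -0.326, -0.0878 and 0.13, and not every mouse correlated best with its own number. With the replicate block 2 genes were called and the median was -0.02.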
